A study of Homo sapiens with 6 samples.

Results

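The genes of the DNA replication fork and of nucleotide supply were examined as a set of 49 members in T98G, a human glioblastoma cell line, after silencing of the protein kinase DYRK1A. The members came from a list of names chosen with earlier results of these data known, so their counts below describe the list and are no independent test. Each was looked up by its gene symbol in the table of normalized counts. All 49 were found among 23026 genes, and all 49 passed the filter on low values that left 9697 genes for testing. They were divided by role into 14 helicase and origin-firing genes, 9 DNA polymerase genes, 11 genes of the sliding clamp, its loader, the single-strand binding protein and lagging-strand maturation, 3 fork protection genes, 6 nucleotide genes and 6 chromatin genes.

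The mRNA of 6 libraries was compared, with 3 from cells that received a lentiviral control hairpin (shControl 1A, 1B and 1C) and 3 from cells that received a lentiviral hairpin against DYRK1A (shDYRK1A 1A, 1B and 1C). Cells of both groups went through selection with puromycin and a recovery period without it, and for both the same number of T98G cells was combined with a set number of Kc167 cells, a Drosophila line, whose reads provide an external scale. A single cell line and a single DYRK1A hairpin name were used, and nothing in the labels says that the libraries of a group came from separate cultures, so p-values measure the spread between these libraries, which may be technical. Since RNA came from whole cell populations, fewer cells in S phase and less RNA of these genes in each cell cannot be told apart below. The study's own cell cycle profiles of T98G cells showed more cells in G1 and fewer in S phase after DYRK1A silencing.

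In each S phase the MCM2-7 ring, together with CDC45 and the GINS complex, unwinds the DNA helix ahead of the fork. Polymerase alpha with primase begins each new strand, and polymerases epsilon and delta extend it, held on the template by the PCNA ring that replication factor C loads. Ribonucleotide reductase and thymidylate synthase supply deoxynucleotides, and CAF-1 and the maintenance methyltransferase restore histones and DNA methylation behind the fork. Many of these genes are textbook targets of E2F transcription factors, which act at the passage from G1 into S phase.

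Human gene counts were 33708297 to 42154438 per library, and the size factors implied by the fly scale were 0.821 to 1.03 in shControl and 1.06 to 1.21 in shDYRK1A. Along the leading principal component the groups lay apart, and along the next shDYRK1A 1B lay away from the other silenced libraries. It was also the library with the highest share of unmapped reads (15.6%, against 8.44 to 11.9% in the others). DYRK1A itself had 2227, 2234 and 1895 normalized counts in shControl and 1482, 1056 and 1285 in shDYRK1A and its log2 fold change was -0.73 (SE 0.15, edgeR adjusted p = 5.33e-06) with the spike-in scale and -0.34 (edgeR adjusted p = 0.000591) under TMM scaling, which sets the bulk of human genes to 0. As for cell identity, VIM, CD44 and FN1 were abundant, while NES was at 1.29 to 2.02 CPM (raw counts scaled to the human total of the library). Among the glial genes, raw counts were 0 to 4 for GFAP, 0 for S100B, 0 to 5 for SOX10 and 43 to 77 for OLIG2. The 6 markers of other cell types summed to 1.23 to 2.24 CPM per library, with CD3E at 0 and EPCAM, the highest, at 27 to 65 raw counts.

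Throughout, a normalized count is a raw count divided by the size factor of its library, and a log2 fold change is shDYRK1A relative to shControl. Fold changes and adjusted p-values come from edgeR's quasi-likelihood test with Benjamini-Hochberg adjustment over all 9697 genes. A gene was called lower at an adjusted p below 0.05 together with a log2 fold change below -0.7. Libraries are given in the order 1A, 1B and 1C.

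With the spike-in scale, all 49 members had lower levels in shDYRK1A, with log2 fold changes from -1.53 for RFC3 to -0.34 for POLD2 and a median of -0.78, against -0.40 for all genes tested. Under TMM scaling, 47 stayed below 0 and POLD2 and RPA3 stood at 0.07. Of the 49 members, 33 were called lower, where 14.3% of all genes tested were. Called higher by edgeR or by DESeq2 were 0 members, and 0 lay above 0 at an unadjusted p under 0.05. With all 49 below 0 this could not be otherwise, and only 27 of the 9697 genes tested were called higher. Adjusted p alone was below 0.05 for all 49, where 63.4% of all genes tested were lower by this rule. In each of the 49, every shDYRK1A library lay below every shControl library, which held for 63.6% of all genes tested. Leaving out shControl 1A gave 28 called members, as did leaving out shDYRK1A 1B. Without shControl 1C 37 were called, and without shDYRK1A 1A 38. The share of all genes tested called lower moved too, to 11.3, 9.36, 21.6 and 21.5% in the order of these omissions. Just inside the fold threshold lay GINS2 (-0.703), and just outside it DUT (-0.695).

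The members were also set against the other human genes. Under TMM scaling their median log2 fold change was -0.37, against 0.00 for all genes tested. Adjusted p was below 0.05 with a lower level in 43 members, while 28.6% of all genes tested were lower by this rule. It was below 0.05 with a higher level in 0 members, against 2652 of the 9697 genes tested. Only RFC3, UNG, RRM2 and GINS1 passed the fold threshold as well, at -1.12, -0.85, -0.79 and -0.71 on the log2 scale, where 1.93% of all genes tested were called lower. In CPM, which divides by the library's own human total, 43 members were lower in shDYRK1A without overlap, where 29.3% of all genes tested were. POLD2 and RPA3 were higher without overlap in CPM, where 33.5% of all genes tested were, and GINS3, RFC2, TIMELESS and ASF1B overlapped. Over all genes, the split of lower and higher calls moved from 1386 and 27 with the spike-in scale to 187 and 121 under TMM.

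**Figure D1:**
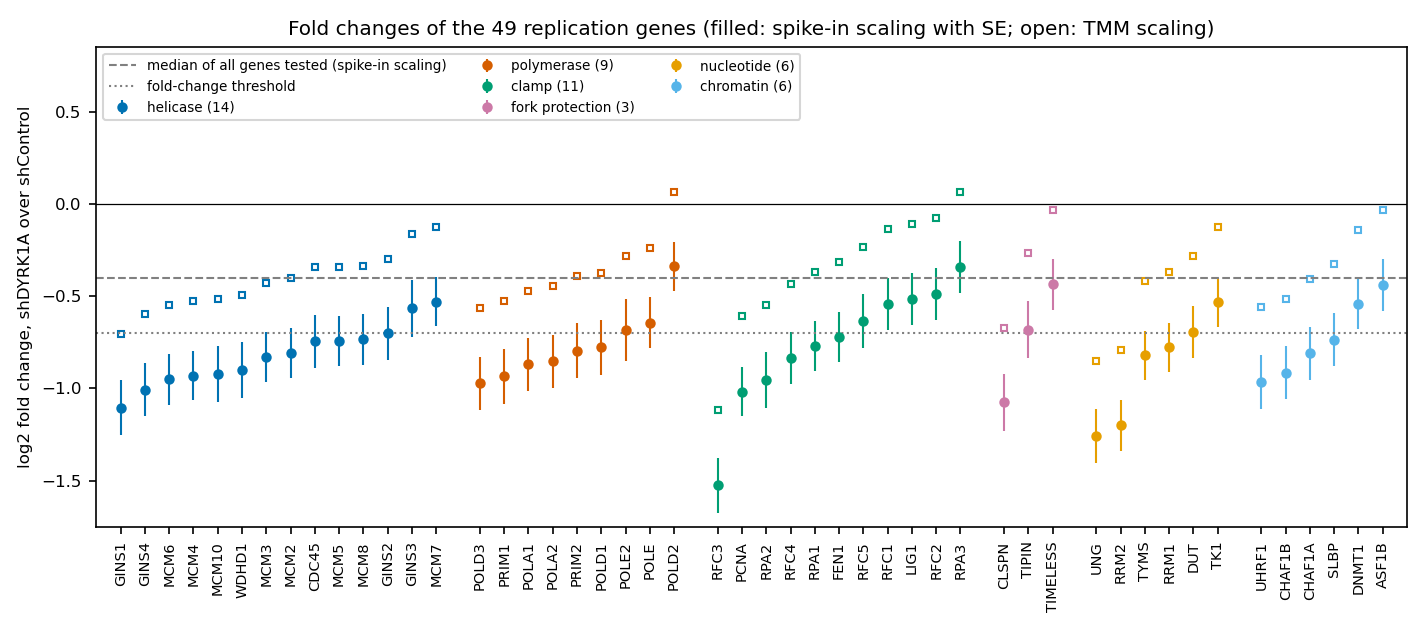
Log2 fold change of each of the 49 genes (y axis, shDYRK1A over shControl), grouped by role, with spike-in scaling as filled circles with standard errors (n = 3 libraries per group) and TMM scaling as open squares. With spike-in scaling all 49 lie below 0, from -1.53 for RFC3 to -0.34 for POLD2, and with TMM scaling POLD2 and RPA3 lie at 0.07.

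**Figure D2:**
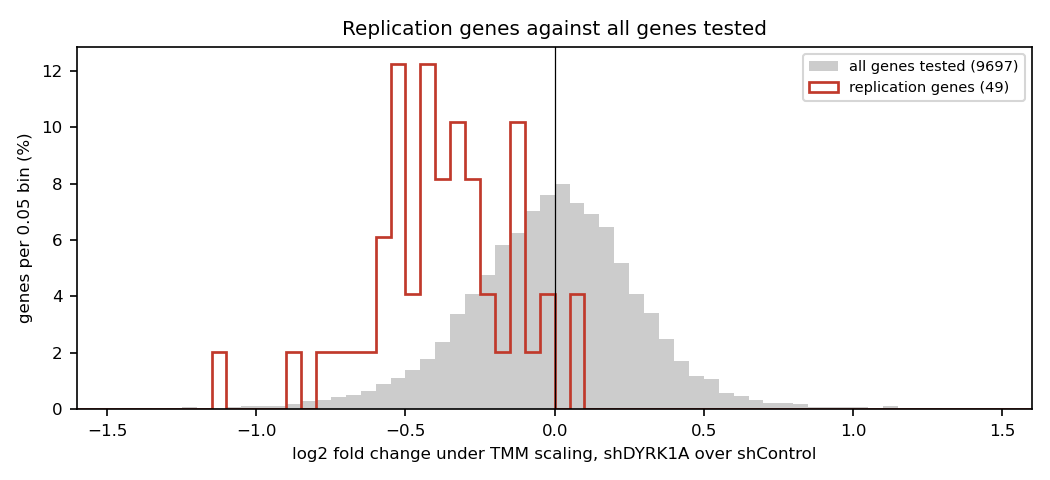
Histogram of log2 fold changes under TMM scaling (x axis) in bins of 0.05, as the percent of 9697 genes tested (gray) and of the 49 replication genes (red outline). The replication genes have a median of -0.37 and all genes tested a median of 0.00.

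The 49 genes together took 0.593, 0.578 and 0.582% of the human counts in the shControl libraries and 0.464, 0.464 and 0.473% in the shDYRK1A libraries. Control libraries averaged 0.584% ± 0.00791 (SD, n = 3) and silenced libraries 0.467% ± 0.00544 (SD, n = 3), so the share in silenced cells was 80.0% of that in control cells. By role, the shDYRK1A share was 77.0% of the shControl share for the nucleotide genes, 78.0% for the clamp group, 78.4% for the helicase group, 84.3% for the chromatin group, 87.5% for the polymerases and 88.2% for fork protection. The libraries of both conditions were separated in each of the 6 role groups. Shares weight a group by its most abundant members, and in the polymerase group POLD2 alone carried the largest counts.

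**Figure D3:**
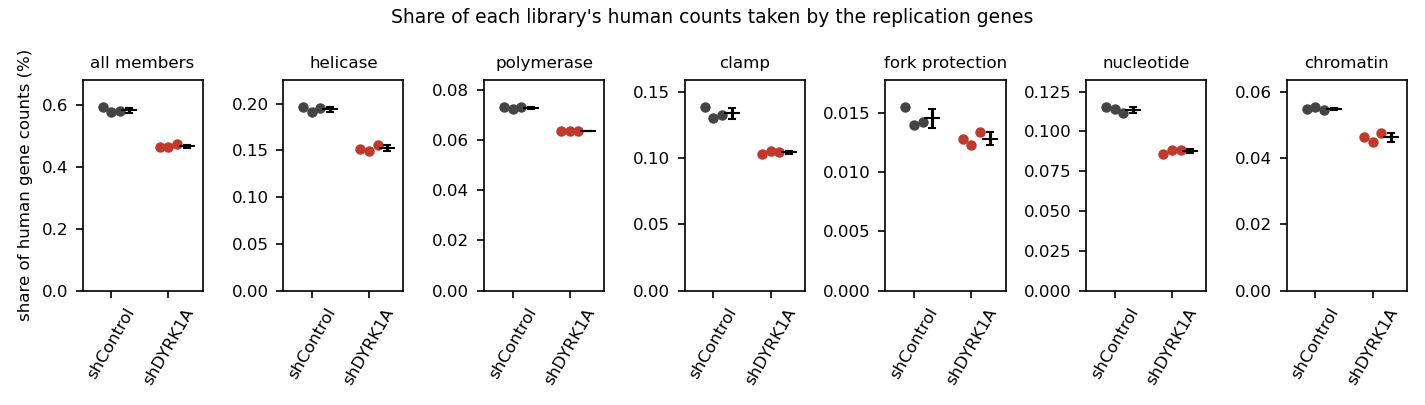
Share of human gene counts (y axis, percent, starting at 0) taken by all 49 genes and by each role group, with a point per library and the mean with SD (n = 3) beside it. The share of all members is 0.578 to 0.593% in shControl and 0.464 to 0.473% in shDYRK1A.

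Short promoter windows are shown first for some of the 22 members that carried an E2F octamer, so each window holds at least 1. Of the 4 motifs searched, this octamer was the one whose shares of members and of tested genes differed most. RRM2, also called lower under TMM, carried none in its promoter entry and has no window. RefSeq promoters of 300 bases (250 before to 50 after the start, GRCh38.p14) were at hand for 43 members, and MCM4, MCM5, GINS4, POLD3, RPA2 and RPA3 had no entry. The octamer was searched on both strands as TTTCCCGC, TTTCGCGC, TTTGCCGC or TTTGGCGC, and 1 octamer is in capitals in each window, in the orientation of the gene. In the MCM6 window a second octamer, on the other strand, overlaps the one in capitals.
RFC3: atttggagctcGCGGGAAAacttgtctctg
UNG: gagggaggtttTTTGCCGCgaaaagaccac
GINS1: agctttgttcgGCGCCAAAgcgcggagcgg
PCNA: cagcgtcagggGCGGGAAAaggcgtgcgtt
CLSPN: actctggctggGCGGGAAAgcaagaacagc
UHRF1: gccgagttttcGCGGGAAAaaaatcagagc
MCM6: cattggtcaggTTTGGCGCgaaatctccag
MCM7: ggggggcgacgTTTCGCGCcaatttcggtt
These windows lie at chr13:33818083-33818112 (plus strand), chr12:109098098-109098127 (plus strand), chr20:25407667-25407696 (plus strand), chr20:5126663-5126692 (minus strand), chr1:35769965-35769994 (minus strand), chr19:4909476-4909505 (plus strand), chr2:135876515-135876544 (minus strand) and chr7:100101388-100101417 (minus strand), in that order. The octamer began 55 bases before the start of the RefSeq promoter entry in RFC3, 63 in UNG, 59 in PCNA and 5 in CLSPN. In GINS1 it lay within the first bases after that start. Gene coordinates given elsewhere are those of the deposited table, and the starts differ. There, RFC3 and UNG start before these windows and GINS1 after its window.

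At least 1 octamer was present in 22 of 43 members (51.2%), against 7.18% of 7594 tested genes with a promoter entry and 3.31% of all 35116 promoters. Members with the octamer had a median log2 fold change of -0.81 with the spike-in scale, and the 21 without it had -0.77, with 14 called lower in each. Among all tested genes with a promoter entry, members included, 111 of 545 with the octamer were called lower, with a median of -0.45. Without it 995 of 7049 were, with a median of -0.40. MCM7, LIG1 and DNMT1 carried the octamer and were not called lower, while RRM2 and RPA1 did not carry it in these windows and were. The CCAAT box was found in 26 of 43 members (60.5%) and in 44.1% of tested genes, or in 55.9% of the members' promoters and 34.6% of all promoters. The word TTTGAA of the CHR element, which marks many G2/M genes, was found in 4 of 43 members (9.30%) and in 13.6% of tested genes, or in 6.78% of the members' promoters and 15.2% of all promoters. TCTCGCGAGA, the palindrome on which the study centers, occurred only in RFC5 among the 43 members (2.33%) and in 1.16% of tested genes. Such matches describe letters in a window and not bound sites.

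The helicase group held 12 of 14 genes called lower, with a median log2 fold change of -0.82 with the spike-in scale and -0.41 under TMM, where all 14 had an adjusted p below 0.05. GINS1, a subunit of the GINS complex that joins CDC45 to the MCM ring, had 2420.2, 2451 and 2035 normalized counts in shControl and 1260.0, 914 and 1035 in shDYRK1A. Its level in silenced cells was 46.5% of control, with a log2 fold change of -1.11 (SE 0.15, edgeR adjusted p = 5.44e-12), the lowest of the group. Among its partners, GINS4 stood at -1.01, GINS2 at -0.70 and GINS3 at -0.57, so the last was the single GINS subunit not called lower. GINS3 had 1319.7, 1221 and 1083 normalized counts in shControl and 888, 695 and 862 in shDYRK1A, with a log2 fold change of -0.57 (SE 0.15, edgeR adjusted p = 0.000739), and under TMM -0.16 (edgeR adjusted p = 0.0443). Part of the exon length of GINS3 (10.9%) and of GINS4 (23.6%) overlaps genes on the opposite strand, and whether strand was used in counting is not given in the sources used here.

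The 6 subunits of the MCM2-7 ring, the motor of the helicase, all fell with the spike-in scale and with TMM, though not to the same extent. MCM6 had 7435, 6949 and 6002 normalized counts in shControl and 3739, 3237 and 3561 in shDYRK1A, with a log2 fold change of -0.95 (SE 0.14, edgeR adjusted p = 1.57e-10). MCM4 had 14678, 14776 and 12119 normalized counts in shControl and 7892, 6397 and 7512 in shDYRK1A, with a log2 fold change of -0.93 (SE 0.13, edgeR adjusted p = 1.1e-10). These 2 subunits stood at 51.7 and 52.4% of their control level, and no silenced library reached a control library. MCM3 had 13352, 12745 and 11083 normalized counts in shControl and 7597, 6291 and 7026 in shDYRK1A, with a log2 fold change of -0.83 (SE 0.13, edgeR adjusted p = 1.04e-08). MCM2 had 8049, 8038 and 6873 normalized counts in shControl and 4501, 4046 and 4566 in shDYRK1A, with a log2 fold change of -0.81 (SE 0.14, edgeR adjusted p = 4.69e-08). MCM5 had 8630.1, 8775 and 7594 normalized counts in shControl and 5302, 4626 and 4986 in shDYRK1A, with a log2 fold change of -0.75 (SE 0.14, edgeR adjusted p = 4.43e-07). These 3 subunits stood between 56.3 and 59.7% of control, close to the median of the group.
MCM7 was the exception and the only ring subunit not called lower. It had 18518, 17388 and 15561 normalized counts in shControl and 12782, 11174 and 11699 in shDYRK1A, or 69.3% of control, with a log2 fold change of -0.53 (SE 0.13, edgeR adjusted p = 0.000227). Under TMM the log2 fold change of MCM7 was -0.12 (edgeR adjusted p = 0.0349). As a share of the counts of the 6 ring subunits, MCM7 went from 26.2, 25.3 and 26.3% in shControl to 30.6, 31.2 and 29.7% in shDYRK1A, while MCM3, MCM4 and MCM6 took smaller shares without overlap and MCM2 and MCM5 overlapped. MCM7 shares 8.94% of its exon length with AP4M1 and MCM2 23.6% with other genes, both on the opposite strand.

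The remaining genes of the helicase group are MCM10, WDHD1, CDC45 and MCM8. MCM10, which helps activate the helicase, had a log2 fold change of -0.92 (SE 0.15, edgeR adjusted p = 2.15e-08), and WDHD1, which links the helicase to polymerase alpha, -0.90 (SE 0.15, edgeR adjusted p = 5.68e-08). CDC45 stood at -0.75 and MCM8, an MCM paralog with roles in recombination, at -0.74. All 4 were called lower.

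Of the 9 polymerase genes, 6 were called lower, with a median log2 fold change of -0.80 with the spike-in scale and -0.39 under TMM. The 4 subunits of polymerase alpha and primase were close to each other, with PRIM1 at -0.93, POLA1 at -0.87, POLA2 at -0.85 and PRIM2 at -0.80, a range of 0.14. PRIM1 and POLA2 share 16.2 and 35.1% of their exon length with other genes on the same strand. In polymerase epsilon, the catalytic subunit POLE and its partner POLE2 stood at -0.64 and -0.68, and neither reached the fold threshold. The other two subunits, which are not among the 49 genes, lay on either side, with POLE3 at -1.01 (edgeR adjusted p = 2.28e-11) and POLE4 at -0.20 (edgeR adjusted p = 0.269), and under TMM they stood at -0.60 and 0.21. POLE had 4330.3, 4316 and 3477 normalized counts in shControl and 2885, 2218 and 2657 in shDYRK1A, with an edgeR adjusted p of 2.83e-05. POLE2, the member with the lowest level per kilobase of exon, had 587, 542 and 465 normalized counts in shControl and 384, 279 and 330.3 in shDYRK1A, with an edgeR adjusted p of 0.000203. Neither gene's groups overlapped.

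Polymerase delta, which copies the lagging strand, was divided. POLD3, an accessory subunit, had 3871, 3609.7 and 3085 normalized counts in shControl and 1930.1, 1612 and 1843 in shDYRK1A, with a log2 fold change of -0.97 (SE 0.14, edgeR adjusted p = 3.4e-10). POLD1, the catalytic subunit, stood at -0.78 and was called lower, and it shares 8.64% of its exon length with a same-strand gene. POLD2 had 12892, 13293 and 11398 normalized counts in shControl and 10688, 9543 and 9473 in shDYRK1A, with a log2 fold change of -0.34 (SE 0.13, edgeR adjusted p = 0.0187), the value nearest 0 of all members, and under TMM the log2 fold change of POLD2 was 0.07 (edgeR adjusted p = 0.266). Its adjusted p rose above 0.05 when shControl 1A, shControl 1B, shDYRK1A 1B or shDYRK1A 1C was left out (0.0877, 0.118, 0.0606 and 0.128 by edgeR). Within the 3 subunits among the members, POLD2 went from 69.3% ± 1.02 (SD, n = 3) to 76.8% ± 1.11 (SD, n = 3) of the counts after silencing, and POLD3 went from 19.4 to 13.9%. The other delta subunit, POLD4, did not pass the filter on low values and had 193, 177 and 219 raw counts in shControl and 228, 223 and 204 in shDYRK1A.

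The clamp group spread most widely, with 6 of 11 genes called lower and a median of -0.72 with the spike-in scale and -0.31 under TMM. RFC3 (chromosome 13, 33818049 to 33966558, plus strand), a subunit of the clamp loader, had 3276, 3268 and 2553 normalized counts in shControl and 1078, 932 and 1147 in shDYRK1A. Its level was 34.7% of control, with a log2 fold change of -1.53 (SE 0.15, edgeR adjusted p = 1.16e-22), the lowest value among the members. Under TMM RFC3 stood at -1.12 (edgeR adjusted p = 1.89e-07) and was number 29 from the lowest of 9697 genes. The other loader subunits fell less. RFC4 stood at -0.84 and was called lower, and RFC5, RFC1 and RFC2 were not. RFC5 had 2046, 2052 and 1781 normalized counts in shControl and 1399.9, 1163 and 1223 in shDYRK1A, with a log2 fold change of -0.63 (SE 0.15, edgeR adjusted p = 8.68e-05). RFC1, the large subunit, had 4373, 4042 and 3451 normalized counts in shControl and 2989, 2351 and 2812 in shDYRK1A, with a log2 fold change of -0.54 (SE 0.14, edgeR adjusted p = 0.000412). RFC2 had 4737, 4154 and 3718 normalized counts in shControl and 3097, 2947 and 2941 in shDYRK1A, with a log2 fold change of -0.49 (SE 0.14, edgeR adjusted p = 0.00135), and under TMM RFC2 did not pass, at -0.08 (edgeR adjusted p = 0.309). RFC3 went from 17.3% ± 0.754 (SD, n = 3) to 10.1% ± 0.797 (SD, n = 3) of the counts of the 5 subunits, and the range of fold changes within the loader, 1.04 on the log2 scale, was the widest of the 10 complexes examined, counting the members in each.

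PCNA, the sliding clamp, was the member with the highest level per kilobase of exon, at 12020 normalized counts per kilobase in shControl and 5937 in shDYRK1A. Its libraries had 19592, 18246 and 15205 normalized counts in shControl and 9299, 8389 and 8511 in shDYRK1A, with a log2 fold change of -1.02 (SE 0.13, edgeR adjusted p = 1.21e-12). Silenced cells held 49.4% of the control level of PCNA, which has 3 named pseudogenes that could share reads. The flap endonuclease FEN1 stood at -0.72 and was called lower. LIG1, the ligase that seals Okazaki fragments, was not, with 3611, 3539 and 2956 normalized counts in shControl and 2579, 2157 and 2334 in shDYRK1A and a log2 fold change of -0.52 (SE 0.14, edgeR adjusted p = 0.000862).

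Replication protein A coats single-stranded DNA as a trimer, and its subunits also differed. RPA2 stood at -0.95 and RPA1 at -0.77, both called lower. RPA3, the smallest subunit, had 3386, 3244 and 2747 normalized counts in shControl and 2633, 2395 and 2366 in shDYRK1A, with a log2 fold change of -0.34 (SE 0.14, edgeR adjusted p = 0.0266), and under TMM RPA3 was at 0.07 (edgeR adjusted p = 0.313). Leaving out shControl 1A, shControl 1B, shDYRK1A 1B or shDYRK1A 1C raised its edgeR adjusted p to 0.171, 0.116, 0.0610 and 0.149. RPA3 went from 20.0% ± 0.269 (SD, n = 3) to 25.6% ± 1.22 (SD, n = 3) of the counts of the trimer.

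**Figure D4:**
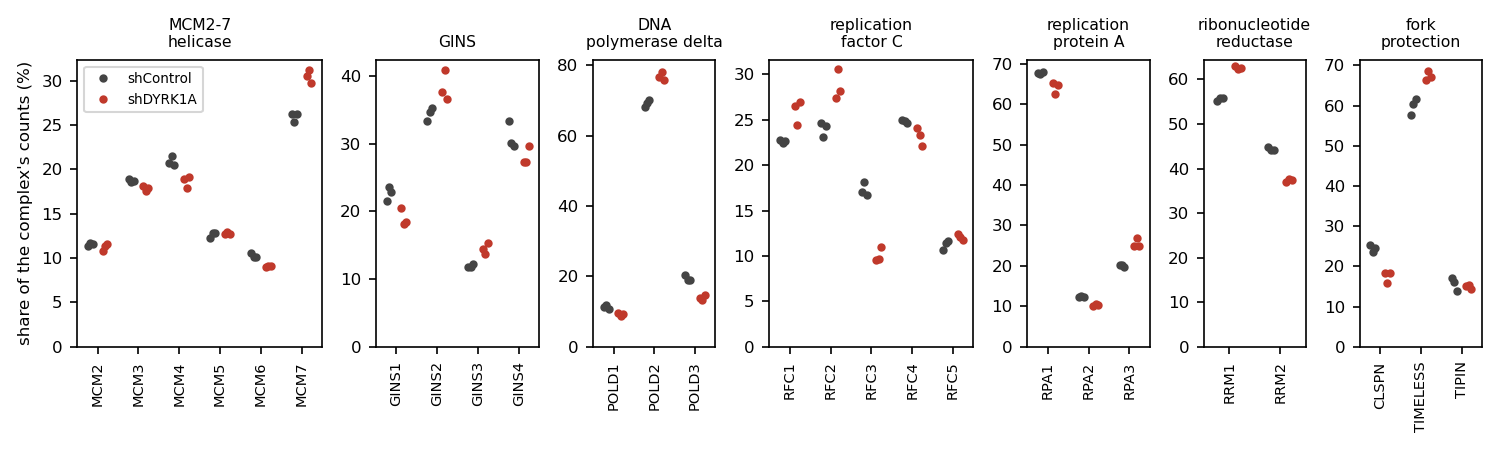
Share of a complex's counts taken by each subunit (y axis, percent, starting at 0) in the 3 shControl (gray) and 3 shDYRK1A (red) libraries. The 7 complexes drawn are those of the 10 examined with the widest ranges of fold changes. Polymerase alpha and primase, polymerase epsilon and CAF-1, whose members differed least, are not drawn. RFC3 goes from 17.3 to 10.1% of its complex, and MCM7, POLD2, RPA3 and TIMELESS take larger shares in shDYRK1A.

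Over the 10 complexes, 12 of 34 subunits took a smaller share of their complex in every shDYRK1A library, 11 took a larger share and 11 overlapped. Shares within a complex add up to the whole, so a smaller share of a subunit comes with a larger share of another. In CPM of single genes, a different measure, 29.3% of all genes tested were lower and 33.5% higher without overlap. The subunit counts are therefore no result about the subunits. The range of log2 fold changes was 0.64 among the fork protection genes, 0.63 in polymerase delta, 0.61 in replication protein A, 0.54 in GINS and 0.42 in both the MCM ring and ribonucleotide reductase. It was 0.14 in polymerase alpha and primase, 0.10 between the CAF-1 subunits CHAF1A and CHAF1B and 0.04 between POLE and POLE2, but 0.81 over all 4 epsilon subunits once POLE3 and POLE4 were counted. These shares are a description, with no test of the difference between subunits.

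Of the 3 fork protection genes, only CLSPN was called lower, and the median was -0.68 with the spike-in scale and -0.27 under TMM. CLSPN encodes Claspin, the adaptor through which ATR activates CHK1 at stalled forks, and it had 1877, 1568 and 1397 normalized counts in shControl and 866, 612 and 819 in shDYRK1A, with a log2 fold change of -1.07 (SE 0.15, edgeR adjusted p = 1e-10). TIPIN had 1275, 1067 and 787 normalized counts in shControl and 711, 591 and 645 in shDYRK1A, with a log2 fold change of -0.68 (SE 0.16, edgeR adjusted p = 6.06e-05). Its partner TIMELESS had 4280.3, 4031 and 3526 normalized counts in shControl and 3123, 2633 and 2989 in shDYRK1A, with a log2 fold change of -0.44 (SE 0.14, edgeR adjusted p = 0.00425). Under TMM TIMELESS was at -0.03 (edgeR adjusted p = 0.572), and without shControl 1A its adjusted p with the spike-in scale was 0.0630. TIPIN shares 21.0% of its exon length with a ribosomal protein pseudogene on the same strand.

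Among the nucleotide genes 4 of 6 were called lower, with a median of -0.80 with the spike-in scale and -0.39 under TMM. UNG (chromosome 12, 109097574 to 109110992), the uracil glycosylase that removes uracil from DNA, had 3064, 3113 and 2530.4 normalized counts in shControl and 1322, 1121 and 1193 in shDYRK1A, with a log2 fold change of -1.26 (SE 0.15, edgeR adjusted p = 6.92e-16). RRM2, the regulatory subunit of ribonucleotide reductase made in S phase, had 10207, 9633 and 7989 normalized counts in shControl and 4326, 3703 and 4078 in shDYRK1A, with a log2 fold change of -1.20 (SE 0.14, edgeR adjusted p = 1.9e-16). They stood at 41.8 and 43.5% of control, and both were also called lower under TMM. The large subunit RRM1 stood at -0.78, so RRM2 went from 44.4% ± 0.415 (SD, n = 3) to 37.3% ± 0.375 (SD, n = 3) of the counts of the pair. RRM2 shares 20.2% of its exon length with a same-strand neighbor and has 3 named pseudogenes.
TYMS, thymidylate synthase, stood at -0.82 and was called lower, and 46.6% of its exon length overlaps ENOSF1 and TYMSOS on the opposite strand. DUT, which hydrolyzes dUTP, lay just outside the fold threshold. It had 4790.4, 5113 and 3940.2 normalized counts in shControl and 3029, 2792 and 2727 in shDYRK1A, with a log2 fold change of -0.70 (SE 0.14, edgeR adjusted p = 5.31e-06). TK1, the thymidine kinase of the salvage pathway, had 12656, 13041 and 10864 normalized counts in shControl and 8669, 8147 and 8457 in shDYRK1A, with a log2 fold change of -0.53 (SE 0.13, edgeR adjusted p = 0.000239). Under TMM TK1 was at -0.12 (edgeR adjusted p = 0.0548). DUT has 8 named pseudogenes and shares 14.5% of its exon length with a gene on the opposite strand, and UNG and TYMS have 2 named pseudogenes each.

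Of the 6 chromatin genes 4 were called lower, with a median of -0.77 with the spike-in scale and -0.37 under TMM. UHRF1, which brings DNMT1 to hemimethylated DNA, had 2507, 2832 and 2241 normalized counts in shControl and 1362, 1129 and 1391 in shDYRK1A, with a log2 fold change of -0.96 (SE 0.15, edgeR adjusted p = 9.15e-10). DNMT1 had 9537, 9795 and 7943 normalized counts in shControl and 6837, 5412 and 6468 in shDYRK1A, with a log2 fold change of -0.54 (SE 0.13, edgeR adjusted p = 0.000209). The CAF-1 subunits CHAF1B and CHAF1A, which deposit new histones, stood at -0.92 and -0.81, and SLBP, which binds histone mRNA, at -0.74. All 3 were called lower. ASF1B, a histone chaperone, was not, with 3571, 3346 and 2943 normalized counts in shControl and 2601, 2293 and 2371 in shDYRK1A and a log2 fold change of -0.44 (SE 0.14, edgeR adjusted p = 0.00433), and under TMM ASF1B was at -0.03 (edgeR adjusted p = 0.569). Without shControl 1A or shDYRK1A 1C the edgeR adjusted p of ASF1B was 0.0647 and 0.0512.

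Other genes of the same processes gave a setting for these values. Among all genes tested the median was -0.40 with the spike-in scale, and 14.3% were called lower. Under TMM 28.6% of all genes tested were lower by adjusted p, and 2652 of 9697 were higher. Of 21 tested among 22 further fork genes, 10 were called lower and 0 higher, with a median of -0.69 with the spike-in scale, from ATAD5 (-1.04) to POLE4 (-0.20), and under TMM 14 were lower and 2 higher by adjusted p. Of 20 further nucleotide genes, 6 were called lower and 0 higher, with a median of -0.61, from ADSS2 (-1.24) to TK2 (-0.11), and under TMM 12 were lower and 2 higher by adjusted p. Of 12 genes of mitosis, 3 were called lower and 0 higher, with a median of -0.56, from HMMR (-0.82) to KIF20A (-0.38), and under TMM 7 were lower and 0 higher by adjusted p. The mitosis genes summed to 2334 to 2394 CPM in shControl and 2109 to 2240 CPM in shDYRK1A, and the part that a change in cycling cells has in the values of the members was not tested.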

How the data were processed

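The authors deposited, per library, raw counts of reads per human gene from stranded paired-end mRNA reads (STAR, build hg38, per the labels; the STAR version, annotation and counting strand are not given in the sources used here), and a table of normalized signal for 23026 genes, each column the deposited raw counts divided by 1 constant per library derived by the authors from fly reads. Fly counts were not used here, so these constants served as size factors. A deposited table of the authors' comparison (log2 fold changes with errors, a Wald score and p-values) was not used. Summary lines (unmapped reads 8.44 to 15.6% per library, multimapping 2.26 to 2.49%) were kept out of library sizes. Per-sample columns that matched no sample numbered 0. For 95.7% of genes the coordinates were those of GENCODE v29 (GRCh38).

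Genes with a mean normalized count above 10 CPM of the mean library size were kept. Counts were fitted with edgeR 4.0.16 (glmQLFit, robust, glmQLFTest) in R 4.3.3, without a replicate block, and a standard error is the fold change over the square root of F. The alternatives tried were scaling by TMM or by median of ratios, DESeq2 1.42.0, other filters and thresholds, a replicate block and each library left out. The fit was tested on simulated data. Promoter words were counted in Python 3.11.15. The members and lists were chosen with earlier results of these data known. Values per library are given for MCM2 to MCM7, the lowest and highest member of each role group and each member not called lower with an adjusted p below 0.05. PCNA and RRM2 were added after their values were seen.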

Additional observations from a re-analysis of the deposited data

How the results depend on the processing

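The 33 members called lower with the spike-in scale became 4 under TMM, 4 under median-of-ratios scaling and 7 with a log2 fold threshold of 1, and ranged from 28 to 38 when 1 library was left out. Of all genes tested, 1.93% were called lower under TMM and 1.90% under median-of-ratios scaling, and the share at a threshold of 1 was not computed. The members called lower stayed 33 with DESeq2, with other filters and with the replicate block. The share of all genes was 14.3% with DESeq2, 14.2% with edgeR's own expression filter, 7.71% with no filter beyond 1 count and 14.4% with the block. Of all genes tested, 9.36 to 21.6% were called lower with the spike-in scale when 1 library was left out. The 4 members called lower under TMM became 43 by adjusted p alone and ranged from 3 to 5 with 1 library left out. Of all genes tested, 28.6% were lower under TMM by adjusted p alone. With 1 library left out, 1.79 to 2.08% of them were called lower. Under TMM and median-of-ratios scaling the median log2 fold changes were -0.37 and -0.37 for all members, -0.41 and -0.41 for the helicase group, -0.39 and -0.39 for the polymerases, -0.31 and -0.31 for the clamp group, -0.27 and -0.26 for fork protection, -0.39 and -0.39 for the nucleotide genes and -0.37 and -0.36 for the chromatin genes. Both scalings set the bulk of human genes near 0 by construction, and the median of the members minus that of all genes was -0.38 with the spike-in scale and -0.38 with both. POLD2 and RPA3 reversed, to 0.0658 and 0.0658 under TMM and 0.0689 and 0.0689 under median-of-ratios scaling. With 1 library left out, the median of the members ranged from -0.88 to -0.71. The labels do not say that the letters 1A, 1B and 1C pair the libraries, and the main fit left pairing out. Deviations of same-letter libraries correlated at 0.15, 0.07 and 0.13, and those of different letters at -0.09 to -0.01. Each library thus correlated best with its own letter, a hint of pairing from the data and not from the design. With the replicate block, 33 members were called lower and all 49 members kept an adjusted p below 0.05, and under TMM with the block 4 were called lower. Depth limits POLE2 most, the member with the lowest counts.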
